A study of Homo sapiens with 18 samples.

Results

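SKM1 is an established human line of acute myeloid leukaemia that arose from a myelodysplastic syndrome. Its baseline here is the 3 arrays of SKM1 cells that had received a non-targeting short hairpin RNA (shNT), 3 of the 18 arrays of the series. They were chosen by their titles and were compared with the mean of 2 other myeloid leukaemia lines carrying the same hairpin, HL-60 (3 shNT arrays) and MOLM13 (3 shNT arrays), each line with equal weight. The other 9 arrays came from the same 3 lines with a hairpin against BCAT1 (shBCAT1), 3 per line. All cells had been transduced with a lentivirus, were isolated by cell sorting 48 h later and gave 200 ng of total RNA for a 1-colour Illumina BeadChip. SKM1 and MOLM13 grew with 20% serum and HL-60 with 10%, so line and serum cannot be told apart between SKM1 and HL-60. Each line is a single line, and shNT cells are transduced cells, not untreated ones. The labels number the arrays of a group and do not say whether they are separate cultures, so p-values measure the spread between these arrays, which may be technical.

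Acute myeloid leukaemia cells are blood precursors stopped partway to granulocytes or monocytes, and lines differ in how far they have gone. Granulocyte precursors fill azurophil granules first, with myeloperoxidase and serine proteases, and specific and gelatinase granules later. The cytosol of mature neutrophils and of monocytes is rich in S100A8 and S100A9. HL-60 is a promyelocyte-like line, and MOLM13 is a monocytic line with a KMT2A fusion and an activated FLT3 receptor.

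Levels are given as probe intensity, the brightness of a probe in arbitrary units, so levels of different genes are not set against each other. The arrays had like medians of all probes, between 91.0 and 93.1, and the values ran from 60.4 to 22917.5. Across the 14370 genes tested, SKM1 arrays correlated with each other at r = 0.996 to 0.997, with HL-60 arrays at 0.897 to 0.903 and with MOLM13 arrays at 0.907 to 0.911. The arrays number 3 per group, which limits the precision, and their median SD per gene on the log2 scale was 0.0714 in SKM1, 0.109 in HL-60 and 0.103 in MOLM13. Every line showed some of the listed markers of myeloid cells. The transcription factor SPI1 (PU.1) averaged 2336 in SKM1, 1715 in HL-60 and 2264 in MOLM13, and CEBPA 4082 in SKM1, 1777 in HL-60 and 7063 in MOLM13. Another listed marker, ANPEP, was low, at 157 in SKM1, 263 in HL-60 and 150 in MOLM13. The pan-leukocyte gene PTPRC lay near the median of all probe values, 92.0, in every line (95.4 in SKM1, 95.7 in HL-60 and 102 in MOLM13), and CD33 is not listed in the annotation used. Among markers of other cells, HBB, ALAS2, KLF1, MS4A1, PAX5 and COL1A1 lay below 150 in every line. The listed erythroid, megakaryocytic and lymphoid genes above 150 in SKM1 were TFRC, XK, HBD, CD247, CD79B and the cytotoxic granule gene NKG7, the last at 514 in SKM1, 956 in HL-60 and 3054 in MOLM13, and their part in the results was not tested. BCAT1, the target of the other hairpin, averaged 1221 ± 16.5 in SKM1, 1468 ± 10.9 in HL-60 and 1071 ± 64.7 in MOLM13 in the shNT arrays and 127 in SKM1, 145 in HL-60 and 157 in MOLM13 in the shBCAT1 arrays.

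The promoters of 4 of the genes furthest from both other lines are shown, 2 higher and 2 lower in SKM1, because PU.1, present in every line, is known to act on many myeloid promoters and all 4 hold the core letters GAGGAA of its binding motif on one strand or the other. The sequences are RefSeq's (GRCh38.p14), 250 bases before to 50 after the gene's start, 5′ to 3′ on the gene's strand, and capitals mark GAGGAA (written TTCCTC on the other strand) or the TATA box letters TATAAA. S100A9 lies at chr1:153357604-153357903 on the plus strand and S100A8 at chr1:153391139-153391438 on the minus strand, and both were higher in SKM1. CTSG at chr14:24576201-24576500 on the minus strand and ALOX5AP at chr13:30713235-30713534 on the plus strand were both lower. Of all 27195 promoters in that table, 27.6% hold GAGGAA and 7.71% hold TATAAA, so a match alone sets no gene apart.
S100A9: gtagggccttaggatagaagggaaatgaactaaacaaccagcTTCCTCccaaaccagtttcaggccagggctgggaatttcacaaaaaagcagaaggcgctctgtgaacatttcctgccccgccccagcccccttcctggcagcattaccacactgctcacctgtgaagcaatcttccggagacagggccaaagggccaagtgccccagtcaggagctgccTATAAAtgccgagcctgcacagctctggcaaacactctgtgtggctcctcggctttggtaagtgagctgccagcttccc
S100A8: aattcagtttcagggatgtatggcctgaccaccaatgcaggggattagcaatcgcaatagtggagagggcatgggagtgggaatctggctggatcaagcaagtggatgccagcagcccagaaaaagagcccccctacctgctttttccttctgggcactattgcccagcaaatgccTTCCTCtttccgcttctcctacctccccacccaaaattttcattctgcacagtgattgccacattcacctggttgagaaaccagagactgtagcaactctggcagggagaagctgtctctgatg
CTSG: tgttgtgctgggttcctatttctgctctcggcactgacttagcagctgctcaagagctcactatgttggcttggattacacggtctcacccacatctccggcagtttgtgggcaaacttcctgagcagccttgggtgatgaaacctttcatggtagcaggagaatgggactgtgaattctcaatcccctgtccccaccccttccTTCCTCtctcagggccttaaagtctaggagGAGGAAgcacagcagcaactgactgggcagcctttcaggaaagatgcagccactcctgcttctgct
ALOX5AP: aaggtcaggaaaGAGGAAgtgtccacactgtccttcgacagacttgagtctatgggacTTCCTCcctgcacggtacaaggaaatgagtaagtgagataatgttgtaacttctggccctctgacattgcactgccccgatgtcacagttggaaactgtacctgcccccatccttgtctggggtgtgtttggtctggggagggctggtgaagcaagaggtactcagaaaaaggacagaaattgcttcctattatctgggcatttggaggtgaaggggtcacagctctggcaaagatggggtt
S100A9 and S100A8 hold 1 match each, S100A9 with a TATA box besides, and CTSG and ALOX5AP hold 2 each. None of the 4 windows holds the C/EBP letters TTGCNNAA, which 10.5% of all promoters do.

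SKM1 differed from the mean of the other lines across much of the transcriptome, and a smaller set of genes stood apart from each of them. Of 14370 genes tested, 3828 (26.6%) were called higher and 3528 (24.6%) lower in SKM1 (limma, adjusted p under 0.05). Such a call can rest on a single other line: in 3238 of these genes (22.5% of all tested) SKM1 did not pass against both lines in the same direction, and in 1044 (7.27%) its mean lay between those of the others. Against HL-60 alone 25.7% of genes were called higher and 25.2% lower, and against MOLM13 alone 27.1% and 23.0%. SKM1 passed against both in the same direction, with no minimum of size, in 2372 higher genes (16.5%) and 1746 lower genes (12.2%). A gene was therefore counted as apart where SKM1 differed from HL-60 and from MOLM13 in the same direction, at least 2-fold in each and with adjusted p under 0.05 in each. This held for 419 genes higher in SKM1 (2.92%) and 219 lower (1.52%). In all of them the 3 SKM1 arrays did not overlap the 6 other arrays, as was also the case for 18.7% of all genes on the higher side and 14.7% on the lower. They had been chosen on these same arrays for differences of at least 2-fold, so the lack of overlap was likely beforehand. By the same rule, 189 genes were apart and higher in HL-60 and 387 lower, and in MOLM13 357 were higher and 153 lower.

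**Figure D1:**
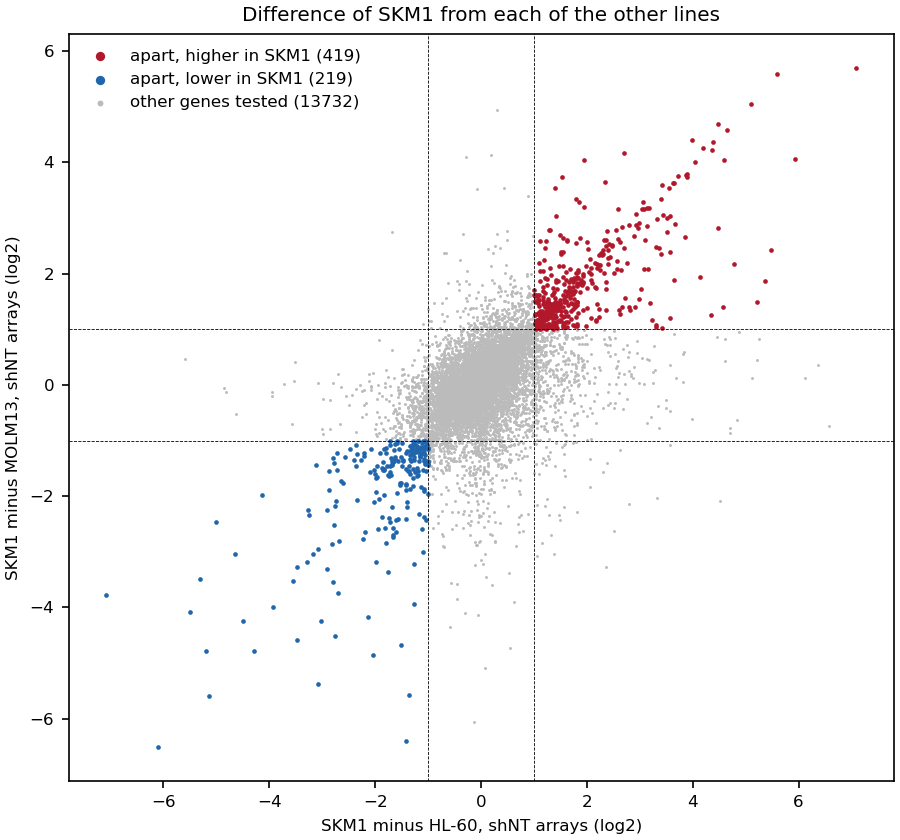
Each point is a gene, with the log2 difference of SKM1 from HL-60 on the horizontal axis and from MOLM13 on the vertical axis (means of 3 shNT arrays per line). The 419 genes in red were at least 2-fold higher in SKM1 than in both lines, the 219 in blue at least 2-fold lower, and dashed lines mark 2-fold.

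Of the 419 genes higher in SKM1, 91 were at least 4-fold and 29 at least 8-fold above both lines, and in 226 both other lines lay under an intensity of 150, close to the floor of the arrays. Of the 219 lower genes, 37 were at least 4-fold and 17 at least 8-fold below both, and in 91 SKM1 lay under 150. Background seemed not to have been subtracted, so folds against such values are understated. Other genes separated SKM1 from a single line: 560 genes (3.90%) were 2-fold or more from HL-60 and within 1.5-fold of MOLM13, and 485 (3.38%) were the reverse. IRF8, a factor of the monocyte lineage, was of the first kind (3759 in SKM1, 101 in HL-60 and 2781 in MOLM13). Myeloperoxidase (MPO) was of the second (11689 in SKM1, 14293 in HL-60 and 684 in MOLM13).

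The genes highest in SKM1 relative to both lines included the 2 subunits of calprotectin, a calcium-binding protein of neutrophils and monocytes. S100A9 gave 11291, 11730.0 and 12415 on the SKM1 arrays, against 83.7, 86.4 and 89.7 on the HL-60 arrays and 301, 193 and 202 on the MOLM13 arrays. It was bright on every SKM1 array and at the floor in HL-60, 136-fold above HL-60 and 52-fold above MOLM13 (log2 differences 7.09 and 5.70, SE 0.13, adjusted p = 3.69e-15 and 6.04e-14). Its partner S100A8 gave 4717, 4947 and 4853 on the SKM1 arrays, against 75.2, 84.7 and 76.7 on the HL-60 arrays and 388, 254 and 251 on the MOLM13 arrays. MOLM13 held a low level of both, and no array of another line reached those of SKM1. MMP9, the gelatinase of late neutrophil granules, gave 1866, 2026 and 2065 on the SKM1 arrays, against 81.6, 75.6 and 89.1 on the HL-60 arrays and 116, 119 and 127 on the MOLM13 arrays, 24.2-fold and 16.5-fold differences. PADI4, a peptidylarginine deiminase that citrullinates histones in neutrophils, averaged 1281 ± 30.7 in SKM1, 86.5 ± 11.1 in HL-60 and 95.9 ± 9.15 in MOLM13.

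Others among the 15 included a gene of the major histocompatibility region and genes better known from other tissues. HCP5, a long non-coding RNA gene of the major histocompatibility region on chromosome 6, gave 4463, 4216 and 4639 on the SKM1 arrays, against 101, 83.8 and 92.8 on the HL-60 arrays and 94.9, 97.5 and 85.4 on the MOLM13 arrays, so both other lines lay at the floor. UCHL1, a deubiquitinase abundant in neurons, gave 2825, 3105 and 3088 on the SKM1 arrays, against 82, 91 and 90.3 on the HL-60 arrays and 92.4, 91.5 and 89.8 on the MOLM13 arrays. The separation was 34.3-fold from HL-60 and 32.9-fold from MOLM13, with SE 0.08 on the log2 scale. EPCAM, the adhesion molecule of epithelia, averaged 1473 ± 83.7 in SKM1, 89.3 ± 0.678 in HL-60 and 91.4 ± 8.9 in MOLM13. The other defining epithelial markers did not go with it: CDH1, KRT8, KRT18 and KRT19 lay between 77.2 and 84.5 in SKM1, and 4 of the 5 markers were under 150 there, against 5 of 5 in HL-60 and in MOLM13.

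Of the 15, 4 act outside the cell or on collagen in the secretory pathway: fibulin FBLN1 (1822 in SKM1, 87.7 in HL-60 and 88.5 in MOLM13), osteopontin SPP1 (1842 in SKM1, 89.8 in HL-60 and 99.4 in MOLM13), the lysyl hydroxylase PLOD2 (1716 in SKM1, 93.5 in HL-60 and 89.6 in MOLM13) and the prolyl isomerase PPIC (2284 in SKM1, 91.5 in HL-60 and 95.4 in MOLM13). The next 2 are best known from germ cells and embryos. The let-7 repressor LIN28B averaged 1185 in SKM1, 79.9 in HL-60 and 85.8 in MOLM13, and the germline gene TEX19 2059 in SKM1, 131 in HL-60 and 97.9 in MOLM13. BEX3 and TCEAL4, small proteins encoded near each other on the X chromosome, were also among the 15. BEX3 averaged 2791 in SKM1, 125 in HL-60 and 109 in MOLM13, and TCEAL4 1353 in SKM1, 92.5 in HL-60 and 99.8 in MOLM13. For the 15 genes as a whole the SE ran from 0.08 to 0.13 and the largest adjusted p against MOLM13 was 2.55e-12. Not every probe of a gene agreed: further probes of SPP1 and PPIC followed the one used, while FBLN1, PLOD2, EPCAM, BEX3 and TCEAL4 each have another probe within 2-fold between SKM1 and the other lines.

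**Figure D2:**
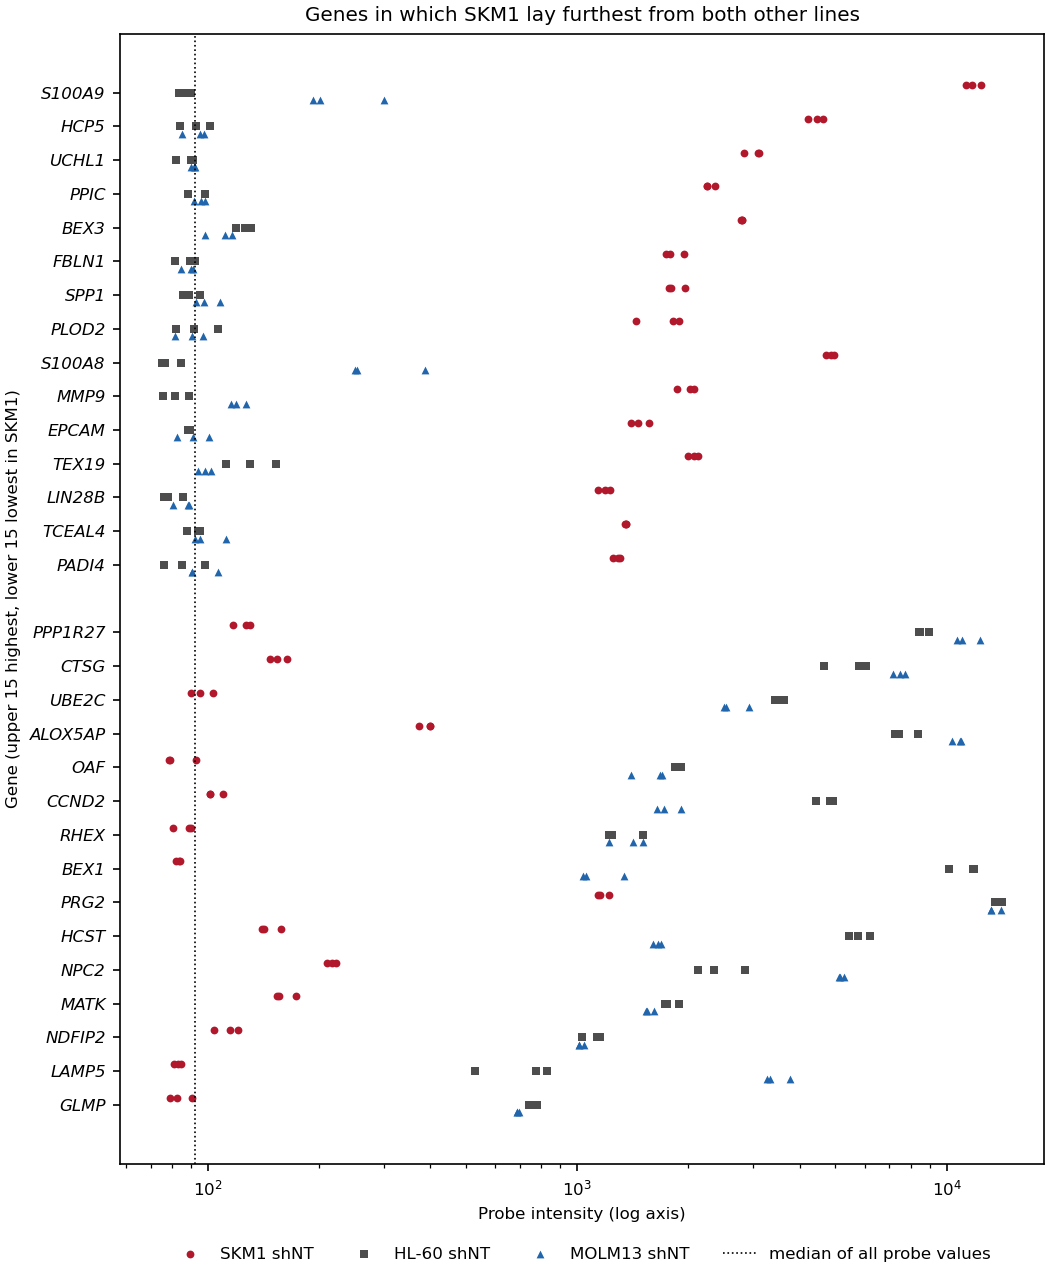
Probe intensity on a log axis for the 15 genes highest (upper block) and the 15 lowest (lower block) in SKM1, one point per shNT array, with SKM1 as red circles, HL-60 as grey squares and MOLM13 as blue triangles. The genes were chosen so that the SKM1 arrays do not overlap the other 6, and the dotted line at 92.0 is the median of all probe values.

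Among the lowest genes in SKM1 were genes of granule products whose RNA was bright in HL-60 and MOLM13. CTSG, the serine protease cathepsin G of azurophil granules, gave 164, 147 and 154 on the SKM1 arrays, against 4649.8, 6052 and 5802 on the HL-60 arrays and 7698, 7138 and 7496 on the MOLM13 arrays. SKM1 was near the floor, 35.3-fold below HL-60 and 48.1-fold below MOLM13 (log2 -5.14 and -5.59, SE 0.10, adjusted p = 4.99e-15 and 4.97e-15). PRG2, the eosinophil major basic protein, gave 1218, 1139 and 1156 on the SKM1 arrays, against 13545, 14106 and 13487 on the HL-60 arrays and 13222, 13157 and 14078 on the MOLM13 arrays. It was still bright in SKM1, 11.7-fold below HL-60 and 11.5-fold below MOLM13. In bulk RNA, fewer cells with a granule product and less RNA per cell cannot be told apart. ALOX5AP, which presents arachidonic acid to 5-lipoxygenase, gave 372, 399 and 399 on the SKM1 arrays, against 8355, 7435 and 7241 on the HL-60 arrays and 10938, 10884 and 10359 on the MOLM13 arrays. PPP1R27, a regulatory subunit of protein phosphatase 1, was the lowest of all relative to both lines, with 127, 117 and 130.0 on the SKM1 arrays, against 8944, 8473 and 8432 on the HL-60 arrays and 12318, 10674 and 11040.0 on the MOLM13 arrays, and its second probe followed.

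Cell cycle and signalling genes were also in this group. Cyclin CCND2 gave 109.8, 101 and 101 on the SKM1 arrays, against 4939, 4433 and 4823 on the HL-60 arrays and 1911, 1721 and 1642 on the MOLM13 arrays, 45.5-fold and 16.9-fold lower in SKM1, and a second probe followed. UBE2C, a ubiquitin-conjugating enzyme of the anaphase-promoting complex, gave 95.4, 89.8 and 103 on the SKM1 arrays, against 3628, 3439 and 3566 on the HL-60 arrays and 2492, 2922 and 2529.7 on the MOLM13 arrays on the probe used. A dimmer probe of UBE2C averaged 86.7 in SKM1, 130 in HL-60 and 148 in MOLM13, a difference of less than 2-fold. The adaptor HCST (DAP10) averaged 147 in SKM1, 5796 in HL-60 and 1648 in MOLM13, and the kinase MATK 161 in SKM1, 1790.5 in HL-60 and 1563 in MOLM13, with 2 further MATK probes near the floor everywhere. NDFIP2, an adaptor of NEDD4 ubiquitin ligases, averaged 113 in SKM1, 1103 in HL-60 and 1021 in MOLM13, and RHEX, a regulator of erythroid growth, 86.4 in SKM1, 1322 in HL-60 and 1378 in MOLM13.

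Among the 15 were 3 genes of lysosomes and related compartments: NPC2, a cholesterol carrier of the lysosome (216 in SKM1, 2438 in HL-60 and 5180.5 in MOLM13), LAMP5 (82.8 in SKM1, 710.4 in HL-60 and 3449 in MOLM13) and GLMP (84 in SKM1, 757 in HL-60 and 689 in MOLM13). OAF averaged 83.4 in SKM1, 1887 in HL-60 and 1588 in MOLM13. BEX1, a relative of BEX3, averaged 83.2 in SKM1, 11286 in HL-60 and 1144 in MOLM13, but its second probe read 475 in SKM1, 2466 in HL-60 and 134 in MOLM13, which places SKM1 above MOLM13. BEX1 is therefore uncertain against MOLM13. Over these 15 genes the SE ran from 0.07 to 0.13 and the largest adjusted p was 5.24e-11, that of LAMP5 against HL-60.

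Genes of antigen presentation by class I molecules were higher in SKM1 as a group. Of 17 members tested, 13 were called higher and 3 lower, where 26.6% and 24.6% of all genes were, and their median difference from the mean of the others was 1.16 on the log2 scale, against -0.02 for all genes (1.41 against HL-60 and 1.13 against MOLM13). In total 8 were apart and higher and none apart and lower (2.92% and 1.52% of all genes). The counts of each list below are to be read beside these same shares of all genes. HLA-B gave 12838, 13187 and 12690.0 on the SKM1 arrays, against 444, 305 and 307 on the HL-60 arrays and 5432, 4443 and 4018 on the MOLM13 arrays, 37.2-fold above HL-60 and 2.81-fold above MOLM13. HLA-F averaged 5182 ± 375 in SKM1, 116 ± 6.78 in HL-60 and 968 ± 35.9 in MOLM13. The immunoproteasome subunit PSMB9 averaged 1339 in SKM1, 257 in HL-60 and 196 in MOLM13, PSMB8 3421 in SKM1, 1287 in HL-60 and 1567 in MOLM13, and the peptide transporter TAP1 2179.9 in SKM1, 657 in HL-60 and 849.8 in MOLM13.

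The shared light chain B2M averaged 13499 ± 1112 in SKM1, 5368 ± 149.8 in HL-60 and 7054 ± 1277 in MOLM13, called higher than in each line but less than 2-fold above MOLM13 (1.93-fold). CD1D, which presents lipids, averaged 1042 in SKM1, 88 in HL-60 and 452 in MOLM13. The trimming peptidase ERAP2, the chaperone TAPBP and TAPBPL were the 3 called lower, ERAP2 at 3851 in SKM1, 6583 in HL-60 and 5973 in MOLM13. HLA genes are similar to one another and vary between people, so probes can differ in how well they match each line, and the levels of HLA-B, HLA-C, HLA-F and HLA-G are uncertain for that reason. A second HLA-C probe read 78.1 in SKM1, 79.6 in HL-60 and 82.9 in MOLM13.

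Class II genes were higher against HL-60 more than against MOLM13. Of 15 tested, 10 were called higher and 3 lower, with a median of 0.36 (0.47 against HL-60 and 0.25 against MOLM13), and 1 was apart: HLA-DPA1, at a low 240.2 in SKM1, 80.2 in HL-60 and 85.5 in MOLM13. The invariant chain CD74, which guides class II molecules to peptide-loading compartments, averaged 3949 ± 191 in SKM1, 103 ± 8.98 in HL-60 and 2234 ± 366 in MOLM13, 38.3-fold above HL-60 and 1.78-fold above MOLM13. HLA-DRA averaged 1011 in SKM1, 311 in HL-60 and 857 in MOLM13, and its difference from MOLM13 did not pass (adjusted p = 0.102).

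Among S100 proteins and products of late granules, 10 of 14 tested were called higher and 2 lower, where 26.6% and 24.6% of all genes were. The list median was 0.63, with 1.66 against HL-60 and 0.17 against MOLM13. The 4 apart and higher were S100A8, S100A9, MMP9 and the oxidase subunit CYBB. CYBB averaged 339 in SKM1, 98.5 in HL-60 and 124 in MOLM13. The oxidase partner NCF1 averaged 2969.7 in SKM1, 101 in HL-60 and 1565 in MOLM13, less than 2-fold above MOLM13, and its near-identical copies in the genome make it uncertain. Orosomucoid ORM1 was one of the 2 called lower, at 137 in SKM1, 86.5 in HL-60 and 1041 in MOLM13, a call that rested on MOLM13, since SKM1 lay above HL-60.

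Among 16 azurophil granule genes, 7 were called higher and 6 lower (median 0.11, with 0.44 against HL-60 and -1.06 against MOLM13), and 4 were apart, each of them lower: CTSG, PRSS57, CST7 and RNASE2. PRSS57, a neutrophil serine protease, gave 114, 109 and 115 on the SKM1 arrays, against 336, 289.7 and 284 on the HL-60 arrays and 10125, 9229.5 and 9377 on the MOLM13 arrays. RNASE2, the eosinophil-derived neurotoxin, gave 2009, 1806 and 1778 on the SKM1 arrays, against 6604, 5987 and 7167 on the HL-60 arrays and 10788, 11196 and 11299 on the MOLM13 arrays. The protease inhibitor CST7 averaged 96.2 in SKM1, 654 in HL-60 and 2213 in MOLM13. In contrast the proteases ELANE, PRTN3 and AZU1 lay between the other lines: ELANE averaged 8271 ± 203 in SKM1, 86.8 ± 5.33 in HL-60 and 13896 ± 951 in MOLM13, PRTN3 8457 in SKM1, 2032 in HL-60 and 11242 in MOLM13 and AZU1 4118 in SKM1, 838 in HL-60 and 12203 in MOLM13. Lysozyme (LYZ) averaged 4270.5 ± 194 in SKM1, 166 ± 39.9 in HL-60 and 7931 ± 2106 in MOLM13, and CEBPE, a factor of late granulocyte maturation, 1116 in SKM1, 3579 in HL-60 and 166 in MOLM13.

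Of 11 eosinophil and mast cell granule genes, 9 were called lower and none higher, where 24.6% and 26.6% of all genes were. The list median was -0.34, and 2 members were apart, PRG2 and RNASE2. RNASE2 is in both this list and the azurophil list, so it is counted in each. Which line carried the call differed between genes. The galectin CLC was bright in HL-60 (136 in SKM1, 6682 in HL-60 and 98.1 in MOLM13), and the tryptase TPSAB1 in MOLM13 (86.9 in SKM1, 119.6 in HL-60 and 1059 in MOLM13). TPSAB1 shares sequence with TPSB2, so the pair cannot be separated with certainty. Peroxidase EPX was near the floor everywhere (90.0 in SKM1, 100.5 in HL-60 and 129 in MOLM13).

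**Figure D3:**
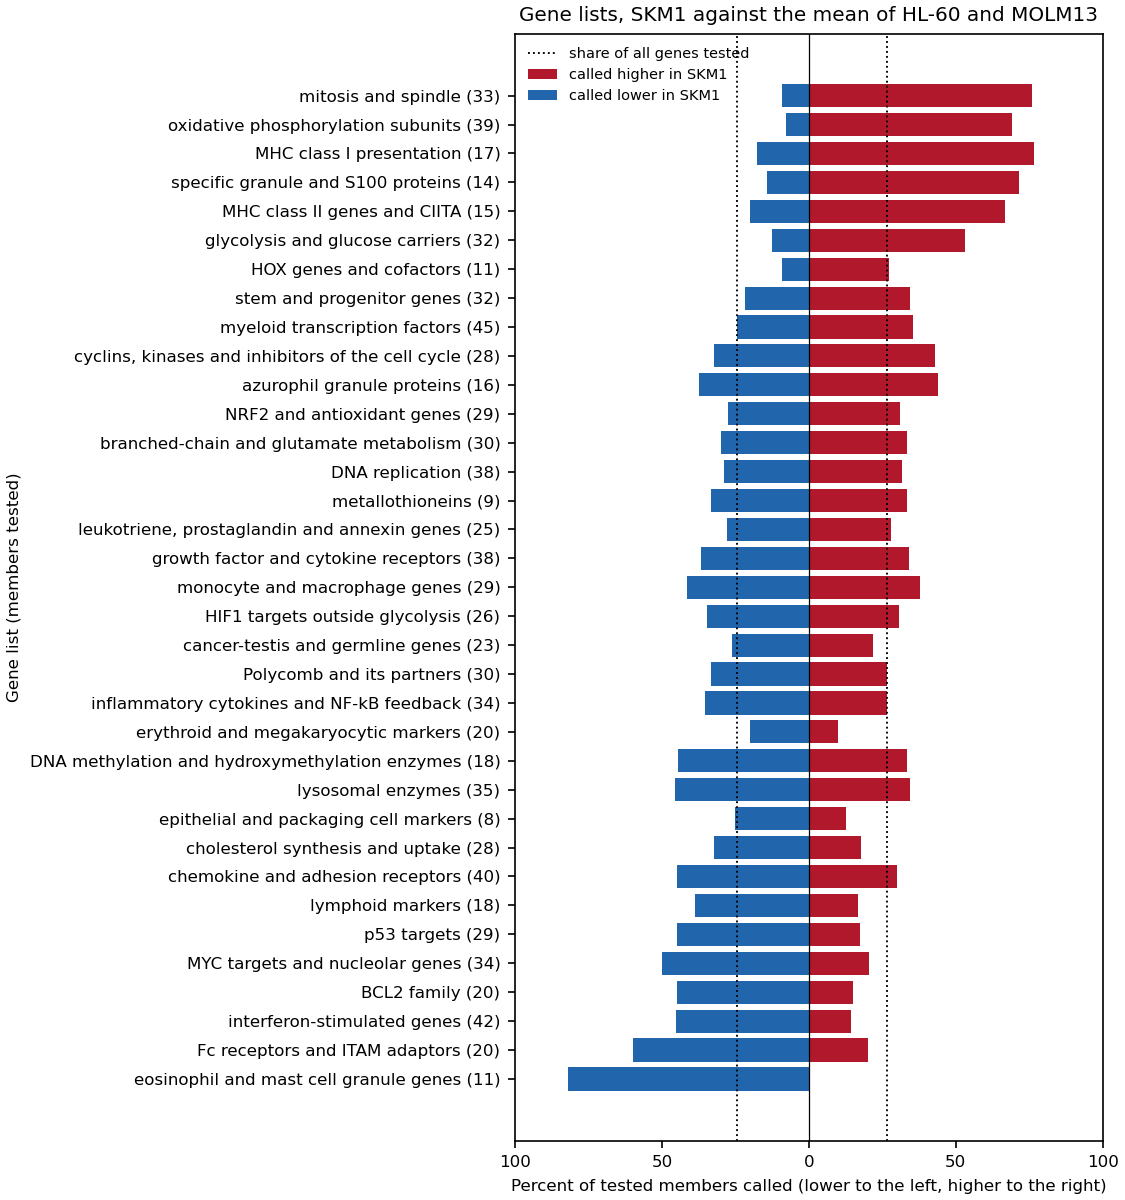
For each of 35 gene lists (number of members tested in brackets), the percent of tested members called higher in SKM1 than the mean of HL-60 and MOLM13 (red, to the right) and lower (blue, to the left). Dotted lines mark the same share of all 14370 genes, 26.6% higher and 24.6% lower, and the lists are ordered by higher minus lower.

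Monocyte genes split. Of 29 tested, 11 were called higher and 12 lower (median -0.07), shares that both exceed those of all genes. Members apart and higher were the nuclear protein MNDA (1009 in SKM1, 95.9 in HL-60 and 204 in MOLM13) and the carboxypeptidase CPVL (1840.0 in SKM1, 77.1 in HL-60 and 694 in MOLM13), 3 in all with ficolin FCN1 (221 in SKM1, 92.2 in HL-60 and 93.9 in MOLM13). The receptor CSF1R averaged 947 in SKM1, 93 in HL-60 and 1229.5 in MOLM13, 10.2-fold above HL-60 and 1.3-fold below MOLM13. CD68, a macrophage glycoprotein, was lower at 241 in SKM1, 403 in HL-60 and 1539 in MOLM13, and CD4 at 132 in SKM1, 231 in HL-60 and 737 in MOLM13. The lipopolysaccharide receptor CD14 averaged 82.5 in SKM1, 103 in HL-60 and 103 in MOLM13, near the floor throughout.

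The adaptors that couple activating receptors to kinases went in different directions. Of 20 Fc receptor and adaptor genes, 4 were called higher and 12 lower (median -0.32). FCER1G, the common Fc receptor gamma chain, averaged 2758 ± 96.2 in SKM1, 219.6 ± 49.2 in HL-60 and 375 ± 70.5 in MOLM13, 12.8-fold above HL-60 and 7.42-fold above MOLM13. TYROBP (DAP12), with a like role, averaged 312 ± 16.9 in SKM1, 392 ± 94.8 in HL-60 and 5444 ± 1226 in MOLM13, 17.2-fold below MOLM13 with no difference from HL-60 that passed (adjusted p = 0.121). HCST and the collagen receptor OSCAR were apart and lower, OSCAR at 126 in SKM1, 282 in HL-60 and 292 in MOLM13. The kinase SYK, which these adaptors recruit, averaged 881 in SKM1, 1574 in HL-60 and 1499 in MOLM13.

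Among 45 myeloid transcription factors, 16 were called higher and 11 lower (median 0.07), and 5 were apart and higher and 4 apart and lower. The higher ones were PPARG, ID3, ID1, CBFB and IKZF1. PPARG, a lipid-activated nuclear receptor of macrophages, averaged 1093 ± 44.5 in SKM1, 87.5 ± 5.22 in HL-60 and 297 ± 22.1 in MOLM13, with 1 of 3 further probes following and 2 at the floor. ID3 and ID1, inhibitors of basic helix-loop-helix factors, were low in the other lines, with ID3 at 389.9 in SKM1, 93 in HL-60 and 81.4 in MOLM13 and ID1 at 396 in SKM1, 87.4 in HL-60 and 178 in MOLM13. CBFB, the partner of RUNX proteins, averaged 1602 in SKM1, 513 in HL-60 and 512 in MOLM13, and Ikaros (IKZF1) 783 in SKM1, 368 in HL-60 and 358 in MOLM13.

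The lower ones were GATA2, RUNX2, EGR1 and ETV6. GATA2, a factor of stem cells and mast cells, averaged 83.6 ± 7.03 in SKM1, 327 ± 64.1 in HL-60 and 508 ± 106 in MOLM13, and RUNX2 93.7 in SKM1, 313 in HL-60 and 492 in MOLM13. ETV6, on chromosome 12, averaged 319.9 ± 8.23 in SKM1, 987 ± 35.7 in HL-60 and 782 ± 52.1 in MOLM13. The immediate-early gene EGR1 averaged 277 ± 29.1 in SKM1, 793 ± 519 in HL-60 and 1054 ± 354 in MOLM13, with the widest spread among these genes (SE 0.33). SPI1 differed little, with a log2 difference from the mean of the others of 0.25 (adjusted p = 0.0385), a call that ended without replicate 1, 2 or 3 of SKM1, where adjusted p was 0.119, 0.0774 and 0.101. CEBPA lay between the other lines (4082 in SKM1, 1777 in HL-60 and 7063 in MOLM13) and was not called (adjusted p = 0.14).

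Stem and progenitor genes gave 11 called higher and 7 lower of 32 (median 0.03), and 5 apart and higher and 3 apart and lower. Besides BEX3 and LIN28B the higher ones were BEX2 (477 in SKM1, 85.6 in HL-60 and 84.4 in MOLM13), the tumour antigen PRAME (667 in SKM1, 273 in HL-60 and 96.9 in MOLM13) and the homeobox gene NKX2-3 (185 in SKM1, 83.1 in HL-60 and 79.5 in MOLM13). The RNA-binding protein IGF2BP3 was lower with 85.4 in SKM1, 742 in HL-60 and 231 in MOLM13. Of 11 HOX genes and cofactors, 3 were called higher and 1 lower. MEIS2 was apart at 499 in SKM1, 222 in HL-60 and 120.2 in MOLM13, while its relative MEIS1 averaged 109 in SKM1, 108 in HL-60 and 468 in MOLM13, near the level of HL-60. HOXA9 is not listed in the annotation used.

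Of 38 growth factor and cytokine receptors, 13 were called higher and 14 lower (median -0.01). The interleukin-13 receptor chain IL13RA1 (937 in SKM1, 94.9 in HL-60 and 446 in MOLM13), the death receptor TNFRSF21 (716 in SKM1, 251 in HL-60 and 138 in MOLM13) and TGFBR2 (716 in SKM1, 294 in HL-60 and 336 in MOLM13) were apart and higher, and the TNF receptor TNFRSF1A (736 in SKM1, 1796 in HL-60 and 1683 in MOLM13) apart and lower. FLT3 averaged 183 in SKM1, 87.8 in HL-60 and 1551 in MOLM13, so its lower call rested on MOLM13. Of 40 chemokine and adhesion receptors, 12 were called higher and 18 lower (median -0.12). The 3 apart were lower, the fibronectin receptor chain ITGA5 (500.0 in SKM1, 1324 in HL-60 and 2711 in MOLM13), the tetraspanin CD82 (224 in SKM1, 680.4 in HL-60 and 864 in MOLM13) and the leukotriene receptor LTB4R (108 in SKM1, 224 in HL-60 and 279.6 in MOLM13).

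Mitotic genes were higher in SKM1 with a few exceptions. Of 33 tested, 25 were called higher and 3 lower, where 26.6% and 24.6% of all genes were. The list median was 0.54, with medians of 0.31 against HL-60 and 0.79 against MOLM13. Most differences were small in size, and 2 genes were apart and higher, the kinesin KIF4A (494 in SKM1, 229.8 in HL-60 and 203 in MOLM13) and the hyaluronan receptor HMMR (2188 in SKM1, 769 in HL-60 and 914 in MOLM13). The mitotic kinase CDK1 averaged 998 ± 29.5 in SKM1, 513 ± 7.03 in HL-60 and 481 ± 96.5 in MOLM13, TOP2A 4187 ± 154 in SKM1, 2714 ± 429 in HL-60 and 2138 ± 407 in MOLM13 and the spindle protein PRC1 2565 ± 156 in SKM1, 1391 ± 44.3 in HL-60 and 1377 ± 139 in MOLM13. The 3 called lower were UBE2C, NDC80 (204 in SKM1, 366 in HL-60 and 238 in MOLM13) and MKI67 (207 in SKM1, 379 in HL-60 and 169 in MOLM13). The calls of NDC80 and MKI67 rested on HL-60, and MKI67 lay above MOLM13. Without the third SKM1 array the call of MKI67 ended (adjusted p = 0.0755).

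Cyclins and their partners showed large single differences. Of 28 cell cycle regulators, 12 were called higher and 9 lower (median 0.04). Cyclin CCND1 was at the floor with 77 in SKM1, 517 in HL-60 and 327 in MOLM13, like CCND2, while CCND3 averaged 6713 in SKM1, 1885 in HL-60 and 5959 in MOLM13. CCND3 was 3.57-fold above HL-60 and 1.13-fold above MOLM13, where the difference did not pass (adjusted p = 0.127). Their kinase CDK4 averaged 1248 ± 34.8 in SKM1, 3073 ± 112 in HL-60 and 2206 ± 119.6 in MOLM13, lower than in each line. The tumour suppressor CDKN2A was apart and higher (498 ± 6.52 in SKM1, 161 ± 4.1 in HL-60 and 83.3 ± 4.45 in MOLM13), and E2F2 apart and lower (229.9 in SKM1, 1285 in HL-60 and 513 in MOLM13). CDKN1A lay between the other lines (601 in SKM1, 117 in HL-60 and 5809 in MOLM13).

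DNA replication genes were near the shares of all genes, with 12 called higher and 11 lower of 38. The helicase component GINS2 was apart and higher (2353 in SKM1, 759 in HL-60 and 1008 in MOLM13). DNA polymerase POLD1 (408 in SKM1, 1466 in HL-60 and 1081 in MOLM13) and ligase LIG1 (364 in SKM1, 1029 in HL-60 and 1007 in MOLM13), both on chromosome 19, were apart and lower. Among 29 p53 targets, 5 were called higher and 13 lower (median -0.18), and none was apart. The calls of some rested on high values in MOLM13, such as BAX (854 in SKM1, 872 in HL-60 and 2476 in MOLM13) and PHLDA3 (82.9 in SKM1, 88.8 in HL-60 and 291 in MOLM13). ZMAT3 was lower than in both (3732 in SKM1, 6633 in HL-60 and 5638 in MOLM13), less than 2-fold. In the BCL2 family, 3 of 20 were called higher and 9 lower, and the pro-apoptotic BIK was apart and lower (121 in SKM1, 256 in HL-60 and 441 in MOLM13).

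Genes of oxidative phosphorylation were called higher in SKM1 more often than lower. Of 39 subunits of oxidative phosphorylation, 27 were called higher and 3 lower, where 26.6% and 24.6% of all genes were. The list median was 0.40 (0.42 against HL-60 and 0.39 against MOLM13). Subunit C of succinate dehydrogenase (SDHC) was apart (1697 in SKM1, 634 in HL-60 and 782 in MOLM13). COX7B (2401 ± 84.2 in SKM1, 1372 ± 71.6 in HL-60 and 1229 ± 183 in MOLM13) and NDUFS4 (3460.5 ± 84.4 in SKM1, 1661 ± 139.9 in HL-60 and 2127 ± 88.9 in MOLM13) were both called higher than in each line. Both differed by more than the list medians. The log2 differences from HL-60 and MOLM13 were 0.81 and 0.98 for COX7B and 1.06 and 0.70 for NDUFS4. NDUFA9, on chromosome 12, was one of the 3 called lower (1073 in SKM1, 1763 in HL-60 and 1345 in MOLM13). Of 32 genes of glycolysis and glucose uptake, 17 were called higher and 4 lower (median 0.24, with 0.48 against HL-60 and 0.05 against MOLM13). Hexokinase HK1 averaged 3290.5 ± 178 in SKM1, 406 ± 51.8 in HL-60 and 993 ± 48.8 in MOLM13, and the other hexokinases HK2 (1532 in SKM1, 860.4 in HL-60 and 617 in MOLM13) and HK3 (276 in SKM1, 93.6 in HL-60 and 144 in MOLM13) were also called higher. Phosphoglycerate kinase PGK1 averaged 6867 in SKM1, 2485 in HL-60 and 3687 in MOLM13, and the neuronal-type enolase ENO2 was apart and lower (211 in SKM1, 536 in HL-60 and 470.3 in MOLM13).

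BCAT1, the cytosolic branched-chain transaminase, showed no called difference from the mean of the others (log2 -0.04, SE 0.06, adjusted p = 0.668). SKM1 lay below HL-60 and above MOLM13, by 1.2-fold and 1.14-fold (adjusted p = 0.00765 and 0.0459). Of 30 genes of branched-chain and glutamate metabolism, 10 were called higher and 9 lower (median -0.06). The mitochondrial BCAT2 was not called (752 in SKM1, 1078 in HL-60 and 609 in MOLM13, adjusted p = 0.267). BCKDHB, a subunit of the enzyme that commits branched-chain keto acids to breakdown, was called higher (429 in SKM1, 295 in HL-60 and 189 in MOLM13). Its further probes were dimmer and gave log2 differences of 0.04, -0.01 and -0.16 from MOLM13, against 1.18 on the probe used. The difference of BCKDHB from MOLM13 is therefore uncertain. Ornithine aminotransferase OAT, which joins ornithine and glutamate metabolism, was apart and higher (814 ± 56.3 in SKM1, 86.2 ± 6.44 in HL-60 and 364 ± 57.3 in MOLM13).

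Genes of growth and chromatin held few large differences. Of 34 MYC targets and nucleolar genes, 7 were called higher and 17 lower (median -0.19, with -0.38 against HL-60 and 0.05 against MOLM13). MYC averaged 3040.3 in SKM1, 4874 in HL-60 and 3143 in MOLM13, below HL-60 by 1.59-fold. The transferrin receptor TFRC (1839 ± 488 in SKM1, 5621 ± 464 in HL-60 and 4682 ± 908 in MOLM13) and the nucleolar NOP56 (1435 ± 123 in SKM1, 4463 ± 297 in HL-60 and 3234 ± 232 in MOLM13) were apart and lower, and EIF5A apart and higher (2589 in SKM1, 866 in HL-60 and 1049 in MOLM13). Among 30 Polycomb genes, 8 were called higher and 10 lower, among the lower the methyltransferase EZH2 with 208 in SKM1, 486 in HL-60 and 277 in MOLM13. SCML2 was apart and higher (331 in SKM1, 146 in HL-60 and 119 in MOLM13) and CBX6 apart and lower (244 in SKM1, 922 in HL-60 and 576 in MOLM13). DNMT3L, a catalytically inactive partner of the de novo DNA methyltransferases known from germ cells, was apart and higher (672 ± 58.9 in SKM1, 88.4 ± 4.31 in HL-60 and 91.9 ± 3.11 in MOLM13), in a list of 18 with 6 called higher and 8 lower.

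Interferon-stimulated genes were called lower more often than higher, 19 against 6 of 42 tested (median -0.16), where 24.6% and 26.6% of all genes were. BST2 (tetherin) was apart and lower (668 in SKM1, 1685 in HL-60 and 1718 in MOLM13) and MX1 apart and higher (354 in SKM1, 101 in HL-60 and 129.6 in MOLM13). The large contrast of IFITM1 rested mostly on HL-60 (109 in SKM1, 2697 in HL-60 and 157 in MOLM13) and that of XAF1 mostly on MOLM13 (153 in SKM1, 225 in HL-60 and 936 in MOLM13). Of 34 inflammatory genes, 9 were called higher and 12 lower. The chemokine CCL5 gave 1139.6, 1129 and 1270.3 on the SKM1 arrays, against 5119, 4995 and 3942 on the HL-60 arrays and 9464, 11083 and 11768 on the MOLM13 arrays, so SKM1 was lowest on each array. CXCL8 was higher with 1178 ± 136 in SKM1, 605 ± 222 in HL-60 and 429.8 ± 161 in MOLM13, a wide spread (SE 0.24), and NFKBIZ averaged 359 in SKM1, 135 in HL-60 and 143 in MOLM13.

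Leukotriene and prostaglandin genes gave 7 called higher and 7 lower of 25. Besides ALOX5AP, thromboxane synthase TBXAS1 (92.7 in SKM1, 199 in HL-60 and 751 in MOLM13) was apart and lower, together with the receptor LTB4R. CYP4F3, which inactivates leukotriene B4 in neutrophils, was apart and higher (286 in SKM1, 78.2 in HL-60 and 90.1 in MOLM13), as was annexin ANXA3 (210.2 in SKM1, 95.7 in HL-60 and 85.5 in MOLM13). Metallothionein MT2A was apart and lower (1088 in SKM1, 4328 in HL-60 and 4282 in MOLM13) in a list with 3 called higher and 3 lower of 9.

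The arrays with the BCAT1 hairpin share no array with the comparison above and gave the line differences a second time. All 419 genes higher in SKM1 and all 219 lower kept their sign in those 9 arrays. They had been chosen for differences of at least 2-fold in the same 3 lines, so a kept sign was likely beforehand. Of the 419 and the 219, 306 (73.0%) and 183 (83.6%) were again apart by the same rule, which makes 2.13% and 1.27% of all genes tested. Across all genes, 391 (2.72%) were apart and higher and 282 (1.96%) apart and lower in the shBCAT1 arrays, so the shared genes make up 78.3% and 64.9% of those lists. The 30 genes named above by rank were again apart. S100A9 averaged 12622 in SKM1, 88.7 in HL-60 and 465 in MOLM13 with shBCAT1, UCHL1 2813 in SKM1, 92 in HL-60 and 89.7 in MOLM13, and CTSG 132 in SKM1, 5559.6 in HL-60 and 9243 in MOLM13. Among genes that were apart with shNT and not with shBCAT1 was TAP1, at 1579 in SKM1, 782 in HL-60 and 1126 in MOLM13.

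**Figure D4:**
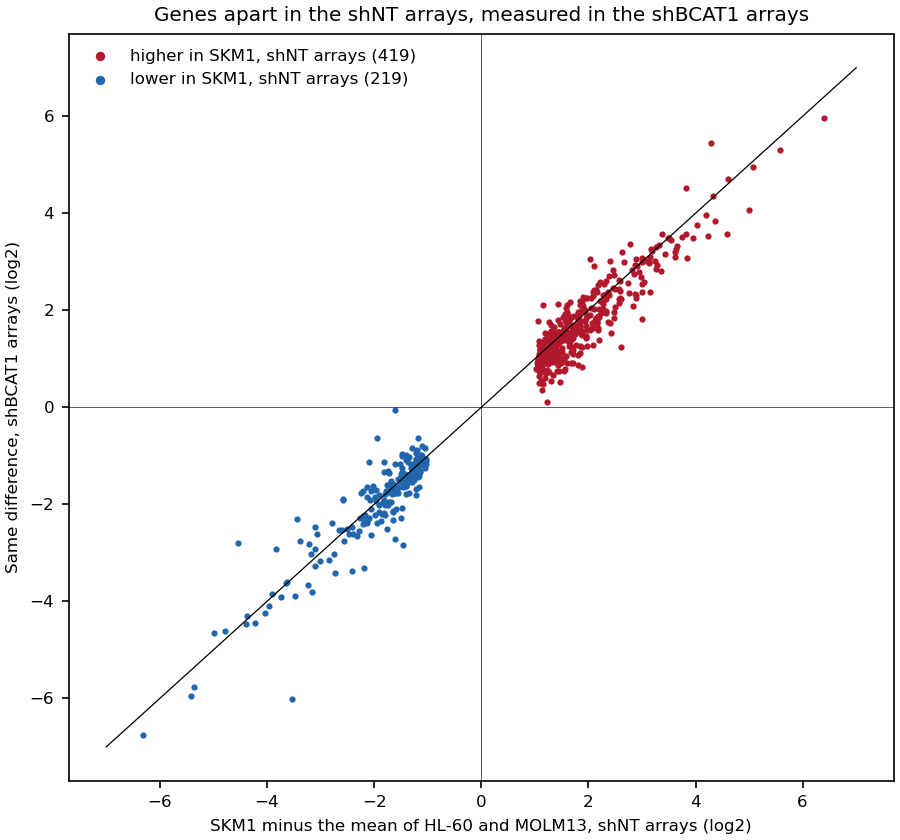
Each point is 1 of the 638 genes apart in the shNT arrays, with the log2 difference of SKM1 from the mean of HL-60 and MOLM13 in the shNT arrays (horizontal) and in the shBCAT1 arrays (vertical). The line marks equal differences, and all 419 red genes lie above 0 and all 219 blue genes below 0 on the vertical axis.

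A test of the difference between hairpins called 1002 genes (6.97%), a count that was 649 without the third SKM1 shNT array and 665 without the second. Among the 1002 were 106 of the 419 and 49 of the 219. Both sets were chosen in the shNT arrays, which this test also uses, so their shares are not comparable with that of all genes. Of the 30 genes named by rank PRG2 changed most, to 214 ± 20.1 in SKM1 with shBCAT1, while HL-60 and MOLM13 averaged 13864 and 13718. ALOX5AP moved the other way, to 1777 ± 187 in SKM1 with shBCAT1, against 12353 in HL-60 and 12273 in MOLM13. SKM1 remained lowest in each.

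Genes apart in SKM1 were not spread evenly over the chromosomes. On chromosome 12, 4 of 741 genes tested were apart and higher and 24 (3.24%) apart and lower, while chromosome 19 had 16 higher and 47 (4.55%) lower of 1032. Across chromosome 12, 44.5% of genes were called lower and 8.64% higher than the mean of the others, with a median difference of -0.15. Chromosomes 14 and 20 also had more lower than higher genes, 13 against 8 and 14 against 5, as did chromosomes 17 (12 against 7) and 13 (6 against 4). Over all genes more were apart and higher than lower (2.92% and 1.52%). This was more marked on chromosomes 5 (30 higher and 2 lower of 608), 15 (22 and 2 of 452), 3 (39 and 4 of 823), 2 (26 and 3 of 900) and 6 (37 and 5 of 781). On chromosome 6, 25.6% of genes were called higher, against 26.6% of all genes. On chromosome 8 the median difference was 0.24 from HL-60 and -0.19 from MOLM13. Genes of a chromosome are not independent, no test was made of these counts, and DNA was not measured on these arrays.

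**Figure D5:**
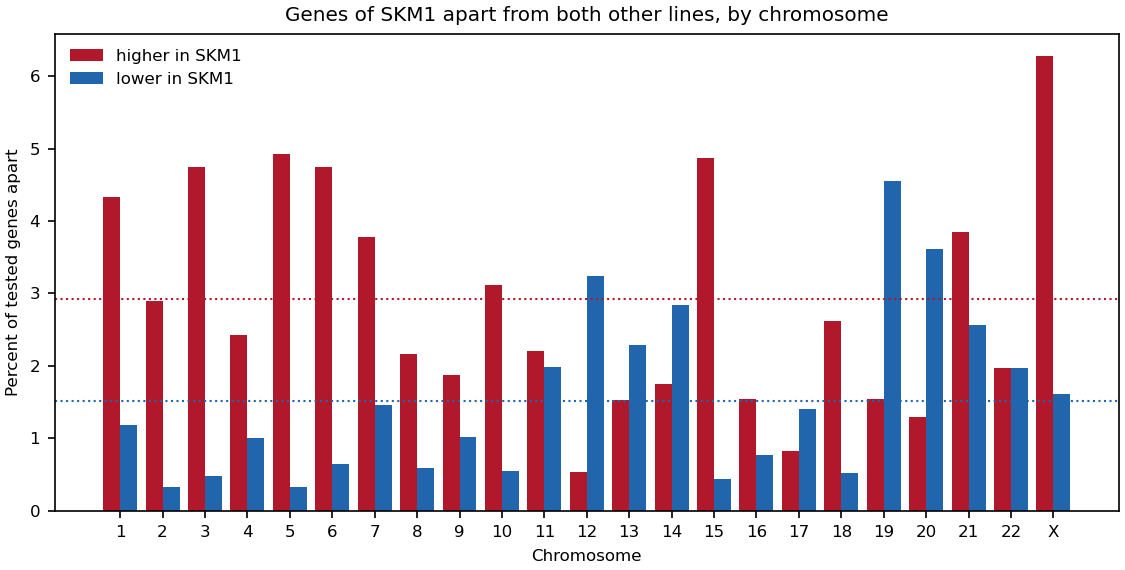
Percent of the genes tested on each chromosome that were apart from both other lines, higher in SKM1 in red and lower in blue. Dotted lines mark the shares of all genes, 2.92% and 1.52%; the lower share reaches 4.55% on chromosome 19 and the higher share 6.27% on the X chromosome.

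The X chromosome had 35 genes apart and higher and 9 lower of 558, and part of these lay in the stretch that holds the BEX, TCEAL and TMSB15 families of small proteins. It was singled out after its values were seen. Of 32 protein-coding genes there, 22 were tested, 6 were apart and higher and 3 apart and lower. The higher ones were BEX3, BEX2, TCEAL4, TCEAL3 (1012 in SKM1, 81 in HL-60 and 81.7 in MOLM13), TMSB15A (808 in SKM1, 89.6 in HL-60 and 89.5 in MOLM13) and TMSB15B (904 in SKM1, 109 in HL-60 and 92.9 in MOLM13), and in each both other lines lay near the floor. TMSB15A and TMSB15B are nearly identical, so their probes may read each other's RNA. The lower ones were BEX1, TCEAL8 (79.2 in SKM1, 578 in HL-60 and 231 in MOLM13) and the export factor NXF3 (123 in SKM1, 832 in HL-60 and 561 in MOLM13). BEX1 is uncertain against MOLM13, as its second probe placed SKM1 above that line. A dimmer TCEAL8 probe was less than 2-fold below MOLM13 (log2 -0.77). BEX4 was at the floor in SKM1 and MOLM13 and bright in HL-60 (84.9 in SKM1, 719 in HL-60 and 82.6 in MOLM13), so neighbours in this stretch were on in different lines.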

How the data were processed

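RNA of SKM1, HL-60 and MOLM13 cells with shNT or shBCAT1 was measured on 18 Illumina arrays. The values are the authors' deposited intensity per probe, not on a log scale. The normalization, the scanner software and any detection filter are not given in the sources used here. The array medians were alike (91.0 to 93.1, a log2 range of 0.0337), and nothing was normalized again. The median probe lies near the floor, so like medians do not show that bright intensities are comparable. With quantile normalization, 3668 genes were called higher and 3672 lower in SKM1 than the mean of the others, against 3828 and 3528. Background seemed not to have been subtracted, the lowest value being 60.4.

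Of 48107 probes, 30113 had 1 gene symbol in the platform annotation, 8 had several and 17986 are unnamed here; 1 named probe with a missing value on an shNT array was left out. A gene was its brightest probe by mean log2 over the 9 shNT arrays, and 14370 of 20046 genes were tested, those whose brightest shNT group lay above 92.0, the median probe value. Dimmer probes did not always follow the one used, as in RUNX2 and CYP4F3, and the text says so for some genes only. Values were taken to log2 with no pseudocount and fitted with limma 3.58.1 in R 4.3.3, with a mean per line (6 residual and 8.25 prior degrees of freedom). P-values were adjusted by Benjamini-Hochberg over all tested genes, with a threshold of 0.05. The shBCAT1 arrays were fitted alone in the same way, and the test of the difference between hairpins used all 18. A value after ± is an SD over 3 arrays, and levels are means of intensities; folds are 2 to the power of the log2 difference. Plots used matplotlib 3.10.9 (Python 3.11.15).

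Genes were named as the 15 highest and 15 lowest in SKM1 by the smaller of the 2 pairwise differences, among genes apart from both lines with no overlap of arrays (genes of the Y chromosome and XIST left out), and as members of 35 gene lists (870 genes tested), first those apart, then those with large contrasts. The lists and rules were chosen with earlier results of these data known. The limit of 150 and the X chromosome stretch were chosen after values were seen. The fit was tested on simulated data. Alternatives covered the fit, filter, probe, background, normalization, fold minimum, array weights, variance trend, replicate block and each array left out, those of the shBCAT1 arrays chosen after seeing the data.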

Additional observations from a re-analysis of the deposited data

Results flagged for a closer look

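In 15 of the 30 genes named by rank, the difference of SKM1 from the mean of HL-60 and MOLM13 was not the same with the 2 hairpins (limma interaction over all 18 arrays, adjusted p under 0.05, as for 6.97% of all genes). The 30 were chosen as extreme in the shNT arrays, which the interaction also uses. Their share is therefore not comparable with that of all genes. The value given is the log2 difference in the shBCAT1 arrays minus that in the shNT arrays. Among genes higher in SKM1 it was -1.01 for BEX3, -0.94 for S100A8, -0.77 for LIN28B, -0.69 for PLOD2 and -0.53 for FBLN1, so these stood less far above the others with shBCAT1. It was 1.17 for SPP1 and 0.70 for PADI4, which stood further above. In S100A8 the MOLM13 arrays moved most: SKM1 averaged 5613 with shBCAT1, HL-60 88 and MOLM13 1289.

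Among genes lower in SKM1 the value was -2.47 for PRG2, -0.53 for BEX1, -0.44 for PPP1R27, -0.42 for NDFIP2 and -0.40 for CTSG, so SKM1 stood further below with shBCAT1. It was 1.74 for ALOX5AP, 0.62 for MATK and 0.34 for UBE2C, which stood less far below. CTSG is close to the threshold (adjusted p = 0.0495), and PPP1R27, BEX1, UBE2C, NDFIP2, CTSG and MATK are near the floor of the arrays in SKM1 with either hairpin. A single hairpin against BCAT1 was used.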

How the results depend on the processing

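The counts of genes called and of genes apart from both lines stayed within 1.5 times the reported ones under the other fits, filters, normalization, background and probe rules tried, with exceptions as follows. Apart from both lines were 1718 genes (1024 higher, 694 lower) with a fold minimum of 1.5 and 128 (91 and 37) with 4; in the shBCAT1 arrays 948 and 766 with 1.5 and 80 and 46 with 4; in both sets of arrays 743 and 530 with 1.5 and 69 and 32 with 4. The count of genes whose line difference differed between hairpins was 1884 with array weights, against 1002, and with 1 array left out it ran from 649 without the third SKM1 shNT array (665 without the second) to 1312 without the first MOLM13 shNT array. Leaving out 1 array gave 411 to 435 genes apart and higher and 206 to 237 apart and lower. The mean of a gene's probes gave 317 and 166, and the background correction 499 and 263. Deviations of same-numbered arrays of different lines correlated at -0.0864 to 0.24, highest between SKM1 and MOLM13 (0.24, 0.0503 and 0.187); not every pair was above 0.1 and not every array correlated best with its own number, so the numbers were not taken to pair the arrays. With the number as a replicate block, 7402 genes differed from the mean of the others, against 7356, and 419 and 219 were again apart. Of the counts of list members under alternatives, 28 moved by more than 1.5 times and 1232 did not; one that moved was the lower count of the cholesterol list, 16 with array weights and 15 without the first MOLM13 array against 9. The call of SPI1 ended under 7 alternatives (adjusted p up to 0.119) and that of MKI67 under 1, and CEBPA gained a call under 4 (adjusted p down to 0.0209). No detection calls were used, and differences between values near the floor are not resolved by these arrays.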

Other observations

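Further gene lists were near the shares of all genes or held single genes of note. Of 28 genes of cholesterol synthesis and uptake, 5 were called higher and 9 lower (median -0.24). The sterol reductase TM7SF2 was apart and lower (153 in SKM1, 487 in HL-60 and 1020.5 in MOLM13), and the exporter ABCA1 (376 in SKM1, 83.7 in HL-60 and 169.5 in MOLM13) and the kinase PMVK (751 in SKM1, 324 in HL-60 and 369 in MOLM13) apart and higher. Of 26 HIF1 targets outside glycolysis, 8 were called higher and 9 lower, with the prolyl hydroxylases P4HA2 (1012 ± 64.1 in SKM1, 84.8 ± 4.73 in HL-60 and 123 ± 6.07 in MOLM13) and EGLN1 (438 in SKM1, 135 in HL-60 and 194 in MOLM13) apart and higher. P4HA2 modifies collagen, as does the product of PLOD2. Of 35 lysosomal genes, 12 were called higher and 16 lower. Cathepsins CTSZ (1666 in SKM1, 169 in HL-60 and 813 in MOLM13) and CTSV (267 in SKM1, 97.7 in HL-60 and 106 in MOLM13) were apart and higher, and DNASE2 (141 in SKM1, 1038 in HL-60 and 536 in MOLM13) with NPC2 apart and lower. Of 29 NRF2 and antioxidant genes, 9 were called higher and 8 lower, with GSTM3 apart and higher (214 in SKM1, 81.2 in HL-60 and 90.0 in MOLM13). Cancer-testis and germline genes had 5 called higher and 6 lower of 23, and the 3 apart, LIN28B, DNMT3L and PRAME, were higher.

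Of the lists that stand for other cells, 18 lymphoid genes gave 3 called higher and 7 lower, with the T cell receptor chain CD247 apart and higher (449.6 in SKM1, 157 in HL-60 and 87.9 in MOLM13) and IGLL1, the surrogate light chain of B cell precursors, apart and lower (87.1 ± 2.99 in SKM1, 2195 ± 389 in HL-60 and 714 ± 60.6 in MOLM13). Dimmer IGLL1 probes were also lower in SKM1, but by less than 2-fold against MOLM13 (log2 -0.39 and -0.94). Of 20 erythroid and megakaryocytic genes, 2 were called higher and 4 lower, and of 8 epithelial and packaging cell genes, 1 (EPCAM) and 2. The summed level of 5 epithelial markers was 1802 in SKM1, against 448 in HL-60 and 442 in MOLM13, EPCAM making up the difference. In HL-60 and MOLM13 all 5 lay under 150, so those sums are of values near the floor. The summed levels of 4 erythroid markers were 360 in SKM1, 378 in HL-60 and 374 in MOLM13. All 4 lay under 150 in every line, so these sums do not show erythroid RNA.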
